A study of Mus musculus with 6 samples.

Results

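Aminoacyl-tRNA synthetases were examined as a group of 36 genes, 20 for cytosolic enzymes and 16 for mitochondrial enzymes (gene names ending in 2), out of 16535 genes that the array's probes could be matched to. Members were chosen by gene name, each probe being assigned through the RefSeq accession it carries. Of the 36 genes, 34 had at least 1 probe, 51 probes in all, and 15 could be tested. Lars and Cars2 had no matched probe and were not analysed here.

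The RNA came from whole blood of 9-week-old male mice of the inbred strain C57BL/6J. One group received a normal control diet and the other 50% food restriction (FR) of the same kind of chow for 2 weeks, with 8 animals per diet and blood drawn from the heart. RNA was combined within each diet, so the data hold pools and not single animals: all 8 of a diet made up pool 1, animals 1 to 4 pool 2, and the remaining 4 (5 to 8) pool 3. Each array of the 2-colour Agilent kind carried FR RNA and control RNA of equal pool number, and each pool was run on 2 arrays with the dyes (Cy5 red, Cy3 green) exchanged, which makes 6 arrays. The 2 replicates of the test are pools 2 and 3, which came from different animals, and pool 1, on a slide of its own, is a repeat measurement of them together. All values below are log2 ratios of FR over control unless another scale is named, so a value of 1 is a doubling and -1 a halving. The centre of each array was set at the bulk of its transcripts, and every ratio is relative to that centre.

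Each synthetase joins 1 amino acid to its matching transfer RNA, the step that gives the genetic code its meaning at the ribosome. Cytosolic enzymes serve the translation of nuclear messages, and separate nuclear-encoded enzymes serve the mitochondrial ribosome, except that Gars and Kars each supply both compartments. Several cytosolic enzymes are held with scaffold proteins in the multisynthetase complex, and many cytosolic synthetase genes are known targets of ATF4, the transcription factor that cells induce when amino acids run short. Circulating red cells have no nucleus, and young ones, the reticulocytes, carry leftover RNA beside that of white cells and platelets.

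Promoters of the members were searched for a motif tied to ATF4, which was found in some cytosolic genes. A window from 250 bases before to 50 bases after the start of transcription, from RefSeq on build GRCm38.p6, was given for 27 of the 36 genes, with 28 windows. It was searched on both strands for TGATGNAA, a core of the element through which ATF4 is known to act with C/EBP partners. The motif was in 5 of 13 cytosolic windows (38.5%) and in 0 of 15 mitochondrial windows, against 3.97% of all 32851 promoter windows of the same length. With so low a share over all windows, 0 of 15 does not set the mitochondrial genes apart. It was also in 7 of 27 windows (25.9%) of an ATF4 list without synthetases. A match describes letters only, and the factor's binding was not measured. The matches were in Aars, Gars, Iars, Tars and Yars. Those of Iars and Yars, and a further match of Aars, began 3 to 9 bases after the start and are not printed. The 250 bases before the start are shown for the other 3 cytosolic genes, for Asns (asparagine synthetase, a textbook ATF4 target that joins no tRNA) and for Qars, the member with the largest change, which had no match. Capitals mark the motif on either strand.
Aars (chr8:111033592-111033841, plus strand): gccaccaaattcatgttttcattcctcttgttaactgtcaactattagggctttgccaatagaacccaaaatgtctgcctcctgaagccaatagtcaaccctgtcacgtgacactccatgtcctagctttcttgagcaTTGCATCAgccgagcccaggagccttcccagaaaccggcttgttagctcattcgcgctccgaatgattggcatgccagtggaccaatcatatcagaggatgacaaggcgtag
Gars (chr6:55037751-55038000, plus strand): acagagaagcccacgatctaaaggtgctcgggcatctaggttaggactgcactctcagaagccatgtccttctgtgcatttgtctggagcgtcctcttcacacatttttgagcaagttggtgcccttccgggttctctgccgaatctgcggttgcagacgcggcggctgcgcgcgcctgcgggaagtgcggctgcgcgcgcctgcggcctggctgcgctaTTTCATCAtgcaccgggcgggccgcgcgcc
Tars (chr15:11399659-11399908, minus strand): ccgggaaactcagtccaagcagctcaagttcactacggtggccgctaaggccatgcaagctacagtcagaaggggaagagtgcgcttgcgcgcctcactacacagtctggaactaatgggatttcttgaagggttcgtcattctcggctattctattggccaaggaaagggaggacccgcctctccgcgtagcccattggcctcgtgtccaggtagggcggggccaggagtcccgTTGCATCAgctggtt
Asns (chr6:7693210-7693459, minus strand): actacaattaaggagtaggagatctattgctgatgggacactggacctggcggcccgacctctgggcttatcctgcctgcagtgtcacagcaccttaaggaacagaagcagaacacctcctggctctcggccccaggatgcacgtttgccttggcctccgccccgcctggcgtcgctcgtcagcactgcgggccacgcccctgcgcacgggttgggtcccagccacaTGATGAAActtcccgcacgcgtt
Qars (chr9:108507755-108508004, plus strand): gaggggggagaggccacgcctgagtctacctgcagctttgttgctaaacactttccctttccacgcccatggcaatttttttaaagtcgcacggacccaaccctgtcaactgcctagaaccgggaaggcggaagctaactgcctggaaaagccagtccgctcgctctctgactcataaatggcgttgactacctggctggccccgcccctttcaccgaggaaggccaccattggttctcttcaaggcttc

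The tested synthetase genes with a match, printed or not, lay on both sides of 0. They had ratios of 0.24 (Yars), 0.08 (Aars), -0.23 (Tars) and -0.35 (Iars), and Gars was too dim to test. Of the other printed genes, Asns was at 0.41 and Qars at -1.02. Trib3 and Nupr1, the other tested genes of the ATF4 list with a match, were at 0.10 and -0.20 and did not pass. No match was found for Nars, Atf5, Slc7a5 or Mthfd2, which were higher in FR, and some of them may have had no window. Whether the motif bears on the ratios was not tested.

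The mitochondrial enzymes were mostly not measurable in this blood. To be tested, a probe needed a signal well above background in 1 of the diets on each of the 4 arrays of pools 2 and 3, which 16 of the 51 synthetase probes (31.4%) and 32.2% of all 41174 probes met. Of 19 cytosolic genes with a probe, 12 were tested, and control was above background on some arrays for another 5 (Dars, Eprs, Gars, Kars and Mars) and on none for 2 (Farsa and Rars). Of 15 mitochondrial genes with a probe, 3 were tested, Lars2, Sars2 and Tars2. Over all 16535 matched genes, 47.8% were tested. Control was above background on some arrays for 6 others (Aars2, Fars2, Rars2, Vars2, Wars2 and Yars2) and on none for 6 (Ears2, Hars2, Iars2, Mars2, Nars2 and Pars2). FR was above background on all 4 arrays for 7 cytosolic and 2 mitochondrial genes. These counts describe the brightness of probes, which differ in sequence, and are no comparison of transcript levels between genes.

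**Figure D1:**
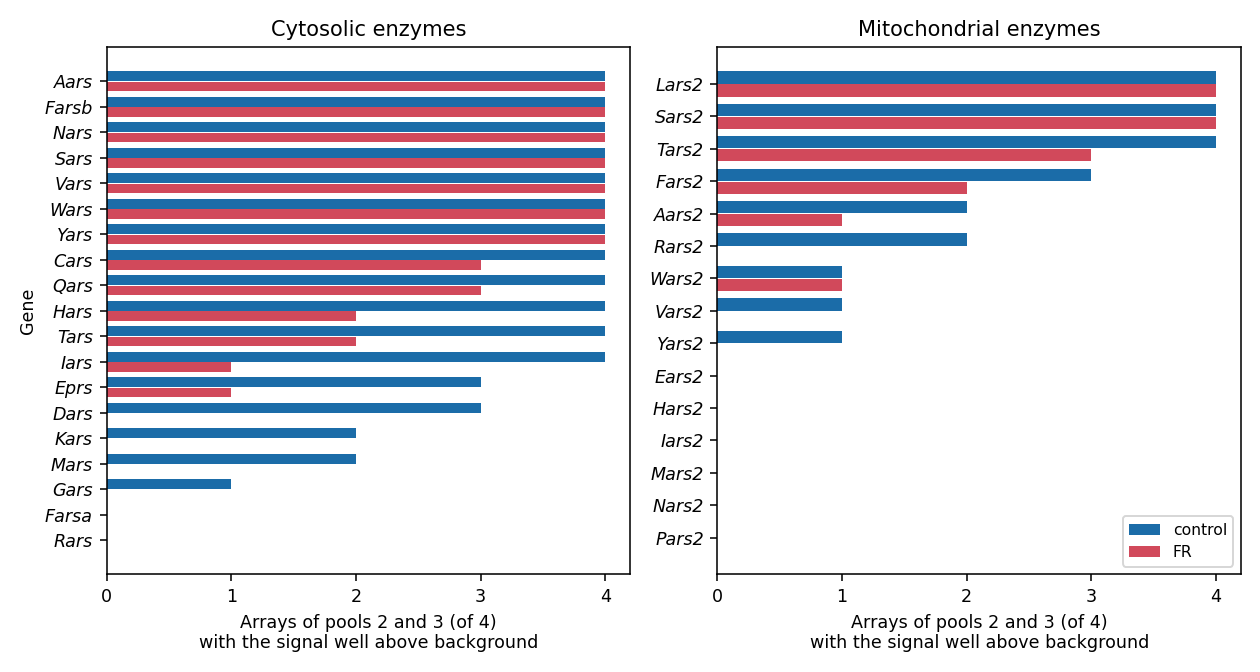
Bars give the number of the 4 arrays of pools 2 and 3 (horizontal axis, 0 to 4) on which the best probe of each of the 34 synthetase genes was well above background in control (blue) and in FR (red). Control reached 4 arrays for 12 of 19 cytosolic genes and for 3 of 15 mitochondrial genes.

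Of the 15 tested genes 4 passed the test, a share near that of the array as a whole. Nars, for asparagine, was higher in FR, and Qars, for glutamine, Iars, for isoleucine, and mitochondrial Tars2, for threonine, were lower (limma, Benjamini-Hochberg adjusted p under 0.05 over 11498 features). Across all features 28.3% passed, with 3.74% higher and 24.5% lower, so the count of synthetases is no result about them as a group. The median ratio was -0.06 over the 12 cytosolic genes, 0.16 over the 3 mitochondrial genes and 0.01 over all features. With only 3 mitochondrial genes, Lars2 and Sars2 both at 0.16 and Tars2 at -0.37, the order of the 2 medians rested on single genes. Without Lars2, for example, the mitochondrial median was -0.10. Counts were 1 higher and 2 lower of 12 cytosolic genes, and 0 higher and 1 lower of 3 mitochondrial ones. With a variance model that lets genes differ more (prior degrees of freedom 5.41, taken from a fit of 3 pools), Qars alone passed, where 17.1% of all features did (1.53% higher and 15.5% lower).

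Qars, the enzyme for glutamine and a member of the multisynthetase complex, fell most. On the arrays with FR in Cy5 its ratio was -1.31 in pool 2, -1.0 in pool 3 and -1.26 in pool 1, and with FR in Cy3 it was -1.10, -0.68 and -1.20 in the same order. All 6 arrays were therefore below 0, and neither the dye nor the slide changed the side. On the log2 scale of the normalised signal, control stood at 8.10, 7.55 and 7.62 in pools 2, 3 and 1 and FR at 6.89, 6.71 and 6.39, so that every FR value lay below every control value. The mean was -1.02 ± 0.26 (SD, n = 2 pools), or 2.03-fold lower (adjusted p = 2.01e-10, and 0.00879 with the prior of 3 pools). FR was above background on 3 of the 4 arrays. It passed in all 18 alternatives that gave a value, between -2.10 with Agilent's processed signals and -0.84 without background subtraction. With FR and control both required above background on all 4 arrays it could not be tested. A dimmer probe of the gene, with FR above background on no array, was at -0.35 in pool 2 and -0.06 in pool 3 and was not tested.

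Markers of white cells and platelets fell in the same pools, and in blood fewer cells of a type and less RNA per cell cannot be told apart. The counts of markers stand against 24.5% of all features lower and 3.74% higher. B cell markers fell in 7 of 9 tested members of 12 (median -1.59), led by Cd79b at -4.48 and Fcmr at -3.77, with a summed signal of 11600 to 18100 units in control and 1930 to 2580 in FR over the 4 arrays. Cd79a (-0.14) and Cr2 (-0.17) did not pass. Monocyte markers fell in 6 of 7 of 10 (median -1.10, sums of 28800 to 51100 against 3900 to 5160), led by Ctss at -3.48 and Lyz2 at -3.23, with Ccr2 and Ms4a6c above background in FR on no array. Cd14 (0.10) did not pass. Natural killer cell markers fell in 4 of 5 of 7 (median -1.19, 1020 to 1450 against 447 to 611), led by Ccl5 at -1.67 and Nkg7 at -1.52, with Prf1 above background in FR on no array. Platelet markers fell in 7 of 10 of 12 (median -0.99, 82400 to 97800 against 36400 to 40300), led by Ppbp at -2.67 and P2ry12 at -2.07. Itgb3 (-0.10), Gp1bb (-0.11) and Selp (-0.12) did not pass. T cell markers fell in 3 of 7 of 12 (median -0.27, 4090 to 4310 against 2810 to 3060), led by Cd3d at -1.89 and Thy1 at -1.88. Cd3e (-0.05), Cd3g (-0.12), Cd5 (-0.27) and Trat1 (0.11) did not pass. Neutrophil markers fell in 4 and rose in 1 of 9 of 12 (median -0.22, 11400 to 25100 against 9620 to 11300), with Clec4d at -1.51 and S100a9 at -0.73 furthest from 0. Erythroid markers, which show that the tissue is blood, rose in 2 and fell in 1 of 9 of 12 (median 0.09, 385000 to 599000 against 391000 to 643000), with Slc25a37 at 1.05 and the globin gene Hba-a1 at 0.01. Their part in the synthetase ratios was not tested. Of markers for other cells that heart blood could carry, the 4 tested cardiac muscle genes of 8 lay between -0.13 and 0.18 (median 0.13, sums of 1570 to 1720 against 1680 to 1880), with Myh6 and Tnnt2 too dim to test. Endothelial genes fell in 2 of 5 tested of 7 (median -0.17, 5790 to 6790 against 3280 to 3990), Vwf at -0.93 and Esam at -0.52. Pecam1 (-0.17), Cdh5 (0.15) and Kdr (0.12) did not pass.

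Iars, the enzyme for isoleucine and a second member of the complex, was lower by a smaller amount. Its ratios with FR in Cy5 were -0.52, -0.24 and -0.85 in pools 2, 3 and 1, and with FR in Cy3 they were -0.38, -0.24 and -0.53. All 6 arrays lay below 0. The mean was -0.35 ± 0.15 (SD, n = 2 pools, adjusted p = 0.00708), with FR above background on 1 of the 4 arrays, so that the size rests on dim FR signals. The ratio was -1.57 with processed signals. The call ended with the prior of 3 pools (adjusted p = 0.0820) and once pool 1 replaced pool 2 (-0.47, adjusted p = 0.0673), and over its 18 alternatives the adjusted p ran from 2.00e-16 to 0.0961. It also ended without the replicate block (adjusted p = 0.0961), without the trend (0.0767) and on the Cy3 arrays alone (0.0955). A dimmer Iars probe, above background in neither diet on any array, was not tested. It was at -0.02, -0.28 and 0.09 in pools 2, 3 and 1.

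The 5 other complex members with a probe, Dars, Eprs, Kars, Mars and Rars, were too dim to test. Aimp1, a scaffold of the complex, was bright enough where Aimp2 and Eef1e1 were not, and fell too, at -0.78, -0.36 and -0.73 in pools 2, 3 and 1 (mean -0.57 ± 0.29, SD, n = 2 pools, adjusted p = 3.56e-05), with FR above background on 1 of the 4 arrays. Aimp1, Qars and Iars all entered the test through control, the diet in which they were brighter. The fall of Aimp1 is therefore no separate support for a fall of the complex. The median of -0.68 for Qars and Iars likewise describes members picked in part by the change itself. With both diets required above background on all 4 arrays neither could be tested, and 0 of the 7 cytosolic genes left were lower. No comparison with enzymes outside the complex is drawn from them. The 10 tested cytosolic enzymes outside it had a median of -0.03.

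Nars, the enzyme for asparagine, was the only tested synthetase to rise. Its ratios with FR in Cy5 were 0.36, 0.96 and 0.72 in pools 2, 3 and 1, and with FR in Cy3 they were 0.27, 1.20 and 0.61. Every array was above 0, with pool 3 high and pool 2 low. Normalised log2 signals were 7.88, 7.36 and 7.40 in control and 8.20, 8.44 and 8.06 in FR, again without overlap. The mean was 0.70 ± 0.54 (SD, n = 2 pools), or 1.62-fold (adjusted p = 6.54e-05), and 98.9% of all tested features had a ratio at or below it. FR and control were above background on all 6 arrays. The gene passed in 17 of 19 alternatives, between 0.44 with median centring and 1.24 with processed signals. The call ended with the prior of 3 pools (adjusted p = 0.0703) and in a fit that took the diets as unpaired, without the replicate block (adjusted p = 0.143).

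Tars2, which charges threonine in mitochondria, was the only mitochondrial enzyme to fall. Its ratios with FR in Cy5 were -0.46, -0.29 and -0.43 in pools 2, 3 and 1, and with FR in Cy3 they were -0.49, -0.23 and -0.14. All 6 arrays were below 0, within a narrow band. The mean was -0.37 ± 0.15 (SD, n = 2 pools, adjusted p = 0.0194), with FR above background on 3 of the 4 arrays, and -1.33 with processed signals. Like Qars and Iars, Tars2 entered the test through control. With both diets required above background on all 4 arrays it could not be tested. The call ended with the prior of 3 pools (adjusted p = 0.107), once pool 1 replaced pool 2 (adjusted p = 0.0721), without the replicate block (adjusted p = 0.400), without the trend (0.0512) and on the Cy3 arrays alone (0.103). A dimmer Tars2 probe, not tested, was at -0.31 in pool 2 and -0.03 in pool 3.

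**Figure D2:**
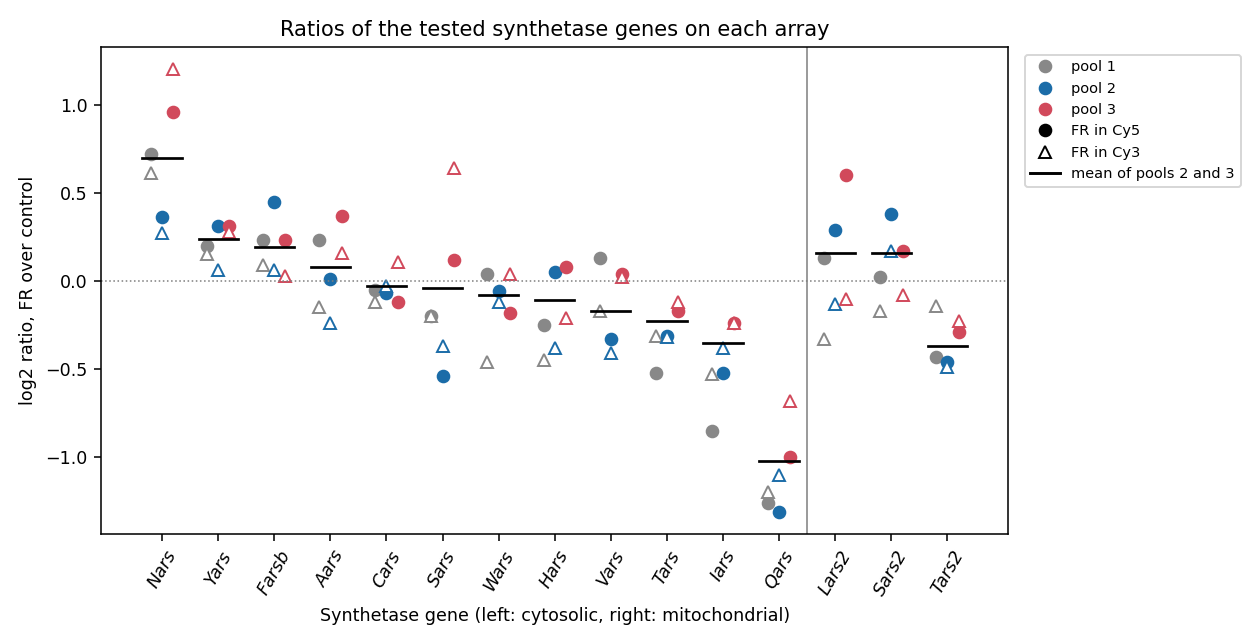
Each point is the log2 ratio of FR over control (vertical axis) of 1 tested synthetase gene on 1 array, coloured by pool, with filled circles for FR in Cy5 and open triangles for FR in Cy3, and black lines at the mean of pools 2 and 3. Qars, Iars, Tars and Tars2 were below 0 on all 6 arrays, and Nars, Yars and Farsb (Farsb at -0.05 in the mean with median centring) were above 0 on all 6.

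The cytosolic partner of Tars2 did not pass. Tars was at -0.32, -0.14 and -0.42 in pools 2, 3 and 1, below 0 on all 6 arrays (mean -0.23 ± 0.12, SD, n = 2 pools, adjusted p = 0.215). A dimmer Tars probe, not tested, was at -0.08, 0.05 and 0.16 in the same order. The cytosolic ratio minus the mitochondrial one was 0.16 in pool 2, 0.12 in pool 3 and -0.13 in pool 1, so the sign was not the same in the repeat measurement. Tars did pass once pool 1 replaced pool 3 (-0.37, adjusted p = 1.72e-05), with median centring (-0.42) and with processed signals (-0.96, adjusted p = 0.0166). Serine gave the other of the 2 pairs in which both genes were tested. Sars was at -0.46 in pool 2, 0.38 in pool 3 and -0.20 in pool 1, and its mean of -0.04 ± 0.59 (SD, n = 2 pools) had the largest spread among the 15 genes. It passed, toward lower values, once pool 1 replaced pool 3 (-0.33, adjusted p = 0.00148). Mitochondrial Sars2 was at 0.28, 0.05 and -0.08 (mean 0.16 ± 0.16, SD, n = 2 pools). The difference was -0.73 in pool 2, 0.33 in pool 3 and -0.12 in pool 1, so neither serine enzyme stood consistently above the other. With 2 pools, an exact sign-flip test of such a difference cannot give a two-sided p below 0.5.

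The third mitochondrial gene, Lars2, for leucine, had the 12th brightest probe of the array, with a normalised log2 signal of 17.02, 16.81 and 16.89 in control and 17.10, 17.06 and 16.79 in FR in pools 2, 3 and 1. No spot was marked as saturated. The ratio followed the dye: it was 0.29, 0.60 and 0.13 with FR in Cy5 and -0.13, -0.10 and -0.33 with FR in Cy3. The mean over dyes was 0.16 ± 0.12 (SD, n = 2 pools, adjusted p = 0.672), and with the Cy5 arrays alone Lars2 passed at 0.44 (adjusted p = 0.000338). Whether the probe also binds other abundant RNA, such as mitochondrial ribosomal RNA, was not tested, which limits what the Lars2 value and the mitochondrial median can be taken to measure.

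The other 7 cytosolic genes lay close to 0. Yars, for tyrosine, and Farsb, the beta subunit of the phenylalanine enzyme, were above 0 on all 6 arrays, at 0.24 (95% interval -0.05 to 0.53) and 0.19 (-0.12 to 0.50), the latter at -0.05 with median centring. Aars, for alanine, was at 0.08 (-0.21 to 0.36), and at -0.15 with median centring. Cars, for cysteine, was at -0.03 (-0.29 to 0.23) and Wars, for tryptophan, whose gene is also known as an interferon target, at -0.08 (-0.38 to 0.22). Hars, for histidine, was at -0.11 (-0.34 to 0.11) and passed at -1.15 with processed signals (adjusted p = 0.00373), with FR above background on 2 of the 4 arrays. Once pool 1 replaced pool 3 it passed at -0.26 (adjusted p = 0.000822). Vars, for valine, was at -0.17 (-0.48 to 0.13) on its brighter probe and at -0.24 on a second tested probe (adjusted p = 0.168), and the brighter one passed with median centring at -0.42 (adjusted p = 0.0338). These intervals come from the variance shared by genes of like signal and hold for the reported setting. In it they exclude a doubling or a halving for each of the 7 genes, while the processed signals put Hars beyond a halving.

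**Figure D3:**
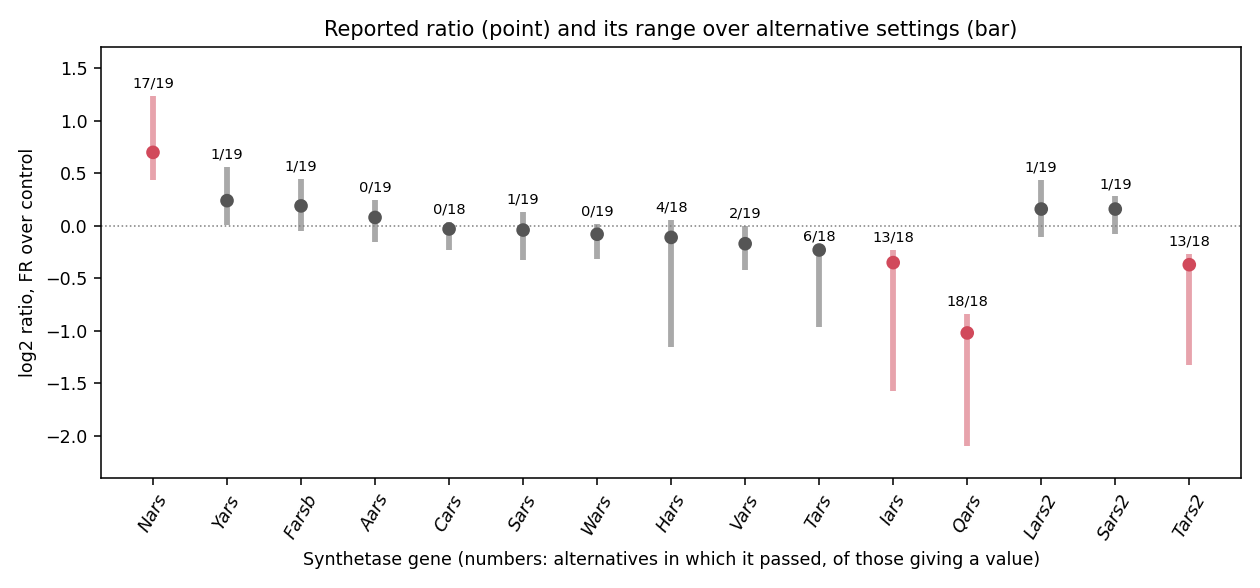
Points are the reported log2 ratios of the 15 tested synthetase genes (vertical axis), and bars run from the lowest to the highest ratio over the alternative settings, with the number in which the gene passed above each bar. Red marks the 4 genes that passed in the reported fit, of which Qars passed in 18 of 18 alternatives and Nars in 17 of 19.

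Grouping the cytosolic enzymes in other ways gave medians near 0. The counts that passed stand against 3.74% of all features higher and 24.5% lower. With so few genes per group, they are no result about any group. The 9 tested genes described as ATF4 targets had 1 higher and 1 lower, with a median of -0.04, and the 3 others had 0 higher and 1 lower, with a median of -0.11. Enzymes for essential amino acids, which the animal must take from food, had 0 of 6 higher and 1 lower (median -0.14), and those for other amino acids 1 higher and 1 lower of 6 (median 0.02). Class I enzymes, one of the 2 unrelated folds of the family, had 0 higher and 2 lower of 6 (median -0.13), and class II enzymes 1 higher and 0 lower of 6 (median 0.02). Between the replicates, 13 of the 15 genes had a higher ratio in pool 3 than in pool 2, where 53.9% of all features did. Over the 6 arrays, 3 genes (20.0%: Nars, Yars and Farsb, whose mean was -0.05 with median centring) were always above 0 and 4 (26.7%: Qars, Iars, Tars and Tars2) always below, against 12.3% and 30.0% of all features.

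Among genes that work beside the synthetases, the counts below stand against 24.5% of all features lower and 3.74% higher. The elongation factor complex that carries charged tRNAs to the ribosome and reloads its carrier fell in its exchange subunits, with Eef1g at -2.01 ± 0.37, Eef1d at -0.91 ± 0.09 and Eef1b2 at -0.63 ± 0.39 (SD, n = 2 pools, largest adjusted p = 0.000111). The call of Eef1b2 ended with the prior of 3 pools (adjusted p = 0.0538). The carrier Eef1a1 itself was at -0.07 ± 0.52 and the translocation factor Eef2 at -0.05 ± 0.53 (SD, n = 2 pools), neither passing. Both means average opposite signs: pools 2 and 3 were at -0.44 and 0.30 for Eef1a1 and at -0.43 and 0.33 for Eef2. In that list 3 of 7 tested genes of 10 fell and 0 rose, with a median of -0.35. For tRNA maturation and export 4 of 13 tested genes of 31 fell and 0 rose (median -0.20), a share near that of all features, led by the RNase P subunit Pop5 at -0.95 ± 0.40 and the tRNA methyltransferase Trmt1 at -0.66 ± 0.39. Rtcb, the tRNA ligase, had FR above background on no array, so no size is given. Its call and that of Pop7 ended with the prior of 3 pools (adjusted p = 0.0559 and 0.110). Among genes of tRNA proofreading and mitochondrial charging, Ptrh2, a peptidyl-tRNA hydrolase, passed toward lower values with FR above background on no array, so no size is given, and its call ended with the prior of 3 pools (adjusted p = 0.0767). Gatb and Gatc, which help make mitochondrial glutamine tRNA, were at -0.09 and 0.06. Pstk, which serves selenocysteine, was at -0.05, and the related Tarsl2 and Sepsecs were too dim to test.

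**Figure D4:**
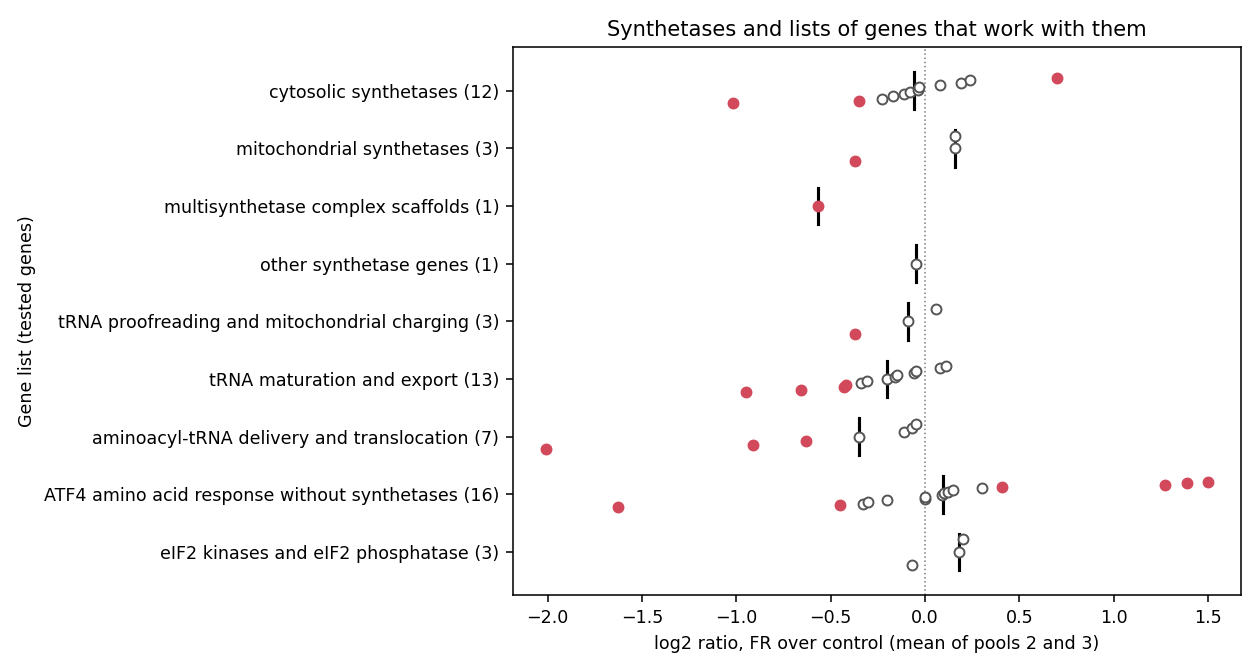
Points are log2 ratios of FR over control (horizontal axis, mean of pools 2 and 3) of the tested genes of each list, red where the gene passed and open where it did not, with black bars at the medians. Eef1g at -2.01 and Eif4ebp1 at -1.63 stand lowest, and Atf5 at 1.50, Slc7a5 at 1.39 and Mthfd2 at 1.27 stand highest.

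In the ATF4 list without synthetases 4 of 16 tested genes of 25 were higher and 2 lower, against 3.74% and 24.5% of all features, with a median of 0.09. Atf5, a stress-responsive transcription factor, was at 1.50 ± 1.15, the amino acid transporter Slc7a5 at 1.39 ± 0.60, the mitochondrial folate enzyme Mthfd2 at 1.27 ± 0.44 and Asns, which makes asparagine, at 0.41 ± 0.15 (SD, n = 2 pools), the last ending with the prior of 3 pools (adjusted p = 0.0966). Asns was singled out after its values were seen. The translation repressor Eif4ebp1 fell at -1.63 ± 0.08 and the transporter Slc38a2 at -0.45 ± 0.21. Slc38a2 had FR above background on 1 of the 4 arrays, and its call ended with the prior of 3 pools (adjusted p = 0.0712). Atf4 itself was at -0.30 (adjusted p = 0.156), and Ddit3 and Trib3, 2 widely used markers of the response, were at 0.00 and 0.10. Upstream, Eif2ak1, the heme-sensing eIF2 kinase of red cells, was at 0.18, Eif2s1, the subunit such kinases modify, at -0.07 and Ppp1r15a, a subunit of the eIF2 phosphatase, at 0.20, with adjusted p from 0.407 to 0.750. Nars had the same order of pools as 3 of the 6 genes of the list that passed. Its ratio was 0.32 in pool 2, 0.66 in pool 1 and 1.08 in pool 3, and in the same order Atf5 was at 0.68, 1.45 and 2.31, Slc7a5 at 0.97, 1.25 and 1.81 and Mthfd2 at 0.96, 1.24 and 1.58. Asns, at 0.31, 0.55 and 0.52, and Slc38a2, at -0.60, -0.75 and -0.30, had other orders. Slc25a37, the iron importer of mitochondria on the erythroid list, had the order of Nars at 0.62, 0.94 and 1.48, and Eif4ebp1 did not, at -1.68, -1.53 and -1.57. These are values of 3 pools that share animals, no correlation was computed, and how many of all features have this order was not counted. Pool 1 mixes the animals of pools 2 and 3. A higher ratio in pool 3 than in pool 2 was seen in 53.9% of all tested features and 13 of the 15 tested synthetases. The shared order therefore does not tie Nars to these genes.

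**Figure D5:**
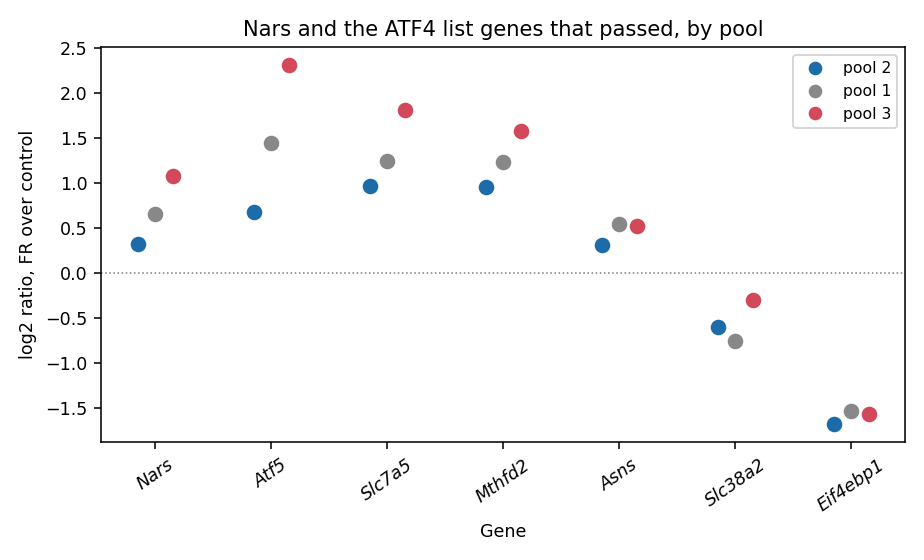
Points are log2 ratios of FR over control (vertical axis) in pool 2, pool 1 and pool 3 for Nars and for the 6 genes of the ATF4 list that passed. Nars, Atf5, Slc7a5 and Mthfd2 were lowest in pool 2 and highest in pool 3, while Eif4ebp1 lay between -1.68 and -1.53 in all pools.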

How the data were processed

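Per the file headers, the deposited values are linear intensity per spot. The submitters' processing notes name Feature Extraction 11.0.1.1. The authors' series table holds log10 ratios of red over green processed signal, neither centred nor turned for dye, as a match to the scanner files showed (column medians -0.0277 to 0.0520). Flags for outliers and background are per the file headers.

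Median signals were background-corrected (normexp, offset 50), normalised by loess with control spots at weight 0, stripped of control and outlier spots and turned to FR over control, and the 2 arrays of a pool were averaged. Of 41174 probes, 23374 were named through RefSeq accessions (GRCm38.p6 table, names only, since the array design uses an older build). The brightest tested probe stood for its gene, which left 11498 features. Ratios of pools 2 and 3 were tested against 0 with limma 3.58.1 in R 4.3.3 (eBayes with trend, two-sided, Benjamini-Hochberg adjusted), and the script was tested on simulated data. Pairing came from the shared array, not from shared animals. Alternatives covered background, normalisation, dim filter, probe choice, pools, slide, dye, pairing and variance model. One variance was shared at each signal level (infinite prior degrees of freedom), so the SD printed for a gene did not enter its p-value. The p-values rest on 2 pools and overstate certainty for single genes. No batch but the slide is recorded, and pool 1 alone lay on the other slide. The share of spots flagged as well above background was 37.2% to 62.1% over the arrays in control and 20.4% to 55.6% in FR. Outside the control spots none was flagged as saturated, and the number of pools limits precision.

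Named genes were all 36 members, with array values for those that passed, and in each pathway list up to 3 higher and 3 lower genes that passed. Some list genes are not reported here. Members, lists and motif were chosen with earlier results of these data known. The ATF4 genes on the list include targets reported in earlier results, so their direction is not independent evidence.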

Additional observations from a re-analysis of the deposited data

How the results depend on the processing

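The number of pools and the dim FR signals limit what can be told for a single synthetase. Centring on the median moved the median of all features from 0.01 to -0.18, and changes are relative to it. The count of features that passed was 3250, and 1748 with both conditions above background, 7993 with the slide as a block, 1100 without the replicate block and 1962 with the prior of 3 pools. With pool 1 in the place of pool 2 or of pool 3 it was 2864 or 5882. Cytosolic genes lower, 2 as reported, were 4 with processed signals, with the series table (identical values) and with median centring, 5 with the slide block, 1 with FR in Cy3 only, without trend, without the replicate block and with the prior of 3 pools, 0 with both conditions above background, and 1 to 5 with pool 1 in the place of either pool. Cytosolic genes higher were 3 with the slide block and 0 without the replicate block and with the prior of 3 pools. Mitochondrial genes lower, 1 as reported, were 0 with both conditions above background, with FR in Cy3 only, without trend, without the replicate block and with the prior of 3 pools, and 0 to 1 with pool 1 in the place of either pool. Mitochondrial genes higher were 1 with the slide block and with FR in Cy5 only. The cytosolic median was -0.27 with median centring and 0.08 with both conditions above background, and ran from -0.17 to -0.02 with pool 1 in the place of either pool. The mitochondrial median was -0.03 with processed signals or the series table, 0.07 with offset 10, -0.08 with median centring, -0.02 without a dim filter, 0.08 with 3 pools, 0.12 with the slide block, 0.28 with FR in Cy5 only, -0.11 with FR in Cy3 only, -0.10 without Lars2 (a choice made after seeing the data) and -0.02 to -0.01 with pool 1 in the place of either pool. Leaving out Gars and Kars changed no value, since neither was tested. The causes were not tested.

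Of 279 gene values under alternatives, 230 kept their direction and side of the threshold, 17 newly passed, 12 no longer passed and 20 changed sign, none of them a gene that passed in either setting. Alternatives in the dim filter, the pairing or the variance model left a gene's ratio as it was, so its direction could not change there. The series table repeated the processed signals. The count of kept values therefore overstates how stable the directions are. Aars was at -0.15 with median centring and -0.04 with FR in Cy3 only, Cars at 0.04 with FR in Cy3 only, Farsb at -0.05 with median centring and Hars at 0.06 with FR in Cy5 only. Lars2 was at -0.03 with processed signals or the series table and -0.11 with FR in Cy3 only. Sars was at 0.02 with processed signals or the series table, 0.04 with offset 10 and 0.13 with FR in Cy3 only, Sars2 at -0.08 with median centring and Wars at 0.02 with processed signals or the series table. With pool 1 in the place of pool 2, Sars was at 0.09, Sars2 at -0.02 and Vars at 0.00, and in the place of pool 3 Aars was at -0.04 and Lars2 at -0.01.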
